A study of Mus musculus with 16 samples.

Results

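The reticulon family was followed gene by gene and isoform by isoform in mouse brain, where PacBio Iso-seq had read whole cDNA molecules. The members are the 4 genes Rtn1, Rtn2, Rtn3 and Rtn4, taken by gene name, out of 21627 annotated genes with at least 1 read. They held 414 of the 815498 isoforms listed, namely 170 of Rtn1, 21 of Rtn2, 141 of Rtn3 and 82 of Rtn4. The family was chosen by its gene reads and isoform shares over the 4 groups, so levels and shares by region and genotype are given as a description, with no test of the members. The samples were cortex and striatum of male mice of 3 months, either R6/2 or non-transgenic (NT), with 4 samples in each of the 4 groups and 16 in all. R6/2 mice carry a transgene with exon 1 of the human HTT gene and an expanded CAG repeat, under the human HTT promoter, while NT mice lack it. No other allele or treatment is given for any group. In the striatum, samples 1 and 2 of NT and samples 2 and 3 of R6/2 each came as 2 sets of counts, which were summed, and the other 12 samples came as 1 set. Whether 2 sets are 2 sequencing runs or 2 libraries is not stated in the sources used here.

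Reticulons are membrane proteins of the endoplasmic reticulum (ER). Their shared carboxy-terminal domain carries hydrophobic hairpins that wedge into the membrane and bend it into tubules, while the amino-terminal parts differ between genes and between isoforms of a gene. In each gene, a promoter inside the gene or the skipping of a long exon gives a short form that is little more than the shared domain. Rtn4 is known as Nogo: Nogo-A, with a long central exon, is an inhibitor of axon growth in the adult brain, Nogo-B lacks that exon, and Nogo-C starts from a promoter inside the gene. Rtn1 is a neuronal reticulon, long forms of Rtn3 take part in the turnover of ER tubules by autophagy (ER-phagy), Rtn3 and Rtn4 bind the beta-secretase Bace1, and loss of RTN2 function causes a hereditary spastic paraplegia.

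The place where long and short forms of each gene join is shown first, because the forms differ upstream of it. Each line holds 30 bases of the GENCODE M21 transcript (mm10), with the last 15 bases before the shared domain in lower case and the first 15 bases of the first shared exon in capitals. The first shared exon is chr12:72223332-72223539 on the minus strand in Rtn1 (ENSMUSG00000021087), chr7:19293076-19293283 on the plus strand in Rtn2 (ENSMUSG00000030401), chr19:7434931-7435138 on the minus strand in Rtn3 (ENSMUSG00000024758) and chr11:29733633-29733840 on the plus strand in Rtn4 (ENSMUSG00000020458). The 15 bases in lower case are coding in every line but that of Rtn2-002, where some of them are 5′ untranslated.
Rtn1-001 (long): tcaacaagcaaaaagCTATTGACCTTCTGT
Rtn1-201 (short): actggaaaagtcaggCTATTGACCTTCTGT
Rtn2-001 (long): agccgctccttctagTGGCAGACCTGTTGT
Rtn2-002 (short): agatggggagtaaagTGGCAGACCTGTTGT
Rtn3-202 (long): tcagtgatttcccagTGCACGATCTGATTT
Rtn3 short form: gctcctcgtgtgcggTGCACGATCTGATTT
Rtn4-005 (Nogo-A): tgaataaaacttcagTTGTTGACCTCCTGT
Rtn4-007 (Nogo-B): gctcgggctcagtggTTGTTGACCTCCTGT
Rtn4-009 (Nogo-C): gttggaaggacaaggTTGTTGACCTCCTGT
Downstream of this junction the 4 genes have the same exon plan, with 5 internal exons of 208, 139, 70, 47 and 59 nt in each. From the first shared exon to the stop codon, Rtn1 and Rtn4 were 66.2% identical in coding sequence, Rtn1 and Rtn3 65.7%, and Rtn3 and Rtn4 64.3%. Rtn2 was the least like the others, with 58.8% identity to Rtn1, 53.5% to Rtn3 and 52.6% to Rtn4. The coding sequence is 2340 nt in Rtn1-001 and 624 nt in Rtn1-201, 1413 nt in Rtn2-001 and 612 nt in Rtn2-002, and 2892 nt in Rtn3-202. In Rtn4 it is 3486 nt in Nogo-A, 1068 nt in Nogo-B and 597 nt in Nogo-C. The whole loci span chr12:72211752-72409054 (Rtn1), chr7:19282624-19296160 (Rtn2), chr19:7425901-7483281 (Rtn3) and chr11:29692947-29744331 (Rtn4).

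**Figure D1:**
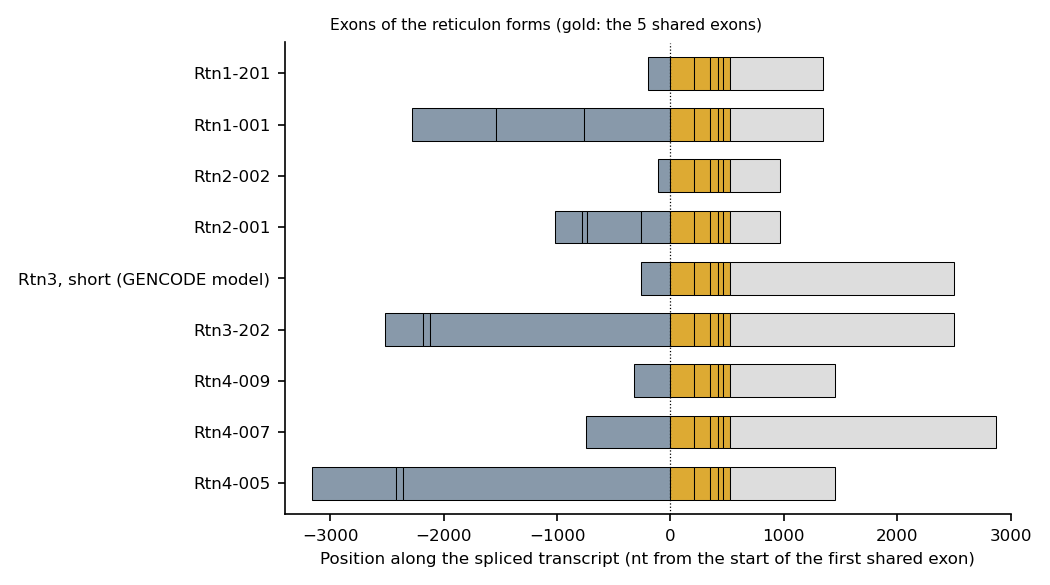
Exon lengths (nt, to scale, introns left out) of the long and short transcripts of each reticulon in GENCODE M21, with the exons before the shared part in blue-grey, the 5 shared internal exons in gold and the last exon in light grey. The 5 gold exons have the same lengths, 208, 139, 70, 47 and 59 nt, in all 4 genes, and the forms differ in what precedes them. In Rtn4 the last exon differs too, with 2345 nt in Rtn4-007 and 930 nt in Rtn4-005 and Rtn4-009.

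Cortical samples held 252885 to 808814 reads and striatal samples 317050 to 1496196, genomic, antisense and intergenic reads included. Levels below are CPM, gene reads scaled to library size after TMM normalization. A read is 1 cDNA sequenced along its length, so counts were not divided by transcript length, and levels of different genes are not compared. Markers matched the labelled regions. Summed CPM of 7 striatal projection neuron markers lay between 8486 and 12000 in NT striatum, between 1507 and 2381 in R6/2 striatum and between 67.2 and 406 in the cortex, and no marker of any type was at 0 in all samples of a region. The 4 striatal samples with 2 sets stood apart from the 4 with 1 set, with a mean isoform length per read of 2172 to 2253 nt against 1710 to 1957 nt, and 1924 to 2174 nt in the cortex.

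Each gene had 1 main isoform among its complete reads, which are defined below. Over all samples, 23547 reads fell in Rtn1 (399 to 2706 per sample), 9187 in Rtn3 (68 to 1662), 3415 in Rtn4 (52 to 333) and 227 in Rtn2 (3 to 87). Complete reads are those assigned to a known isoform or to one with a new combination of known splice sites (NIC) or with a new splice site (NNC), and incomplete splice matches (ISM) follow only part of a known isoform. The short form Rtn1-201, of 7 exons and 1544 nt, held 80.3% of the complete reads of Rtn1, and the long form Rtn1-001, of 9 exons and 3629 nt, held 18.03%. In Rtn3, Rtn3-201 (7 exons, 2841 nt) held 89.6%, Rtn3-203 (8 exons, 1709 nt) 6.44% and the long Rtn3-202 (9 exons, 5030 nt) 1.84%. In Rtn4, Nogo-C (Rtn4-009, 7 exons, 1773 nt) held 84.7%, an unannotated 3-exon NNC isoform of 1651 nt 8.53%, and Nogo-B (Rtn4-007) 3.36%. Rtn2 was the reverse of Rtn1, with 82.9% of its 146 complete reads in the long Rtn2-001 (10 exons, 1990 nt) and 10.96% in the short Rtn2-002 (7 exons, 1076 nt).

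Known isoforms took 94.3% of the gene reads of Rtn1 and 90.2% of those of Rtn3, against 76.6% over all genes. The share was 54.7% in Rtn4 and 60.4% in Rtn2. The rest of these 2 genes was mostly ISM, at 38.9% of Rtn4 reads and 35.7% of Rtn2 reads, against 15.9% over all genes, 7.84% in Rtn3 and 4.17% in Rtn1. In Rtn4 a single ISM isoform of 3 exons and 1647 nt, which matches the start of a longer transcript, made up 963 of the 1329 ISM reads. With the 3-exon NNC isoform it came to 1141 of the 3415 Rtn4 gene reads, beside 1767 of Nogo-C. A 3-exon ISM isoform of Rtn3 of 3479 nt, also a match to a transcript start, held 409 reads, or 4.45% of that gene's reads.

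Rtn4, the Nogo gene, had the clearest difference between NT and R6/2 cortex. Its level was 565, 652, 653 and 582 CPM in the 4 NT cortices and 385, 403, 418 and 334 CPM in the 4 R6/2 cortices. Every R6/2 cortex lay below every NT cortex, with group means of 613 ± 46.2 and 385 ± 36.6 CPM (SD, n = 4) and a ratio of 0.628. The fitted log2 fold change was -0.65 (SE 0.18). The share of all genes that separate the cortices in this way is not given here. Of the 6121 genes tested in the cortex, 1057 had an unadjusted p under 0.05 in edgeR's test, so the separation is not read as particular to Rtn4. In the striatum the Rtn4 values were 345, 201, 280 and 253 CPM in NT and 247, 260, 338 and 226 CPM in R6/2. There the genotypes overlapped over nearly their whole range, with means of 270 ± 60.0 and 268 ± 49.0 CPM (SD, n = 4) and a log2 fold change of -0.02 (SE 0.19).

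Between regions, the 4 NT cortices stood above all other samples for Rtn4, and R6/2 cortex overlapped the striatum of both genotypes, since its lowest sample (334 CPM) lay below the highest striatal samples of NT (345 CPM) and R6/2 (338 CPM). The NT striatum was below the NT cortex in all samples (ratio of means 0.440, log2 fold change -1.27, SE 0.21). R6/2 striatum against R6/2 cortex had a ratio of means of 0.696 and a log2 fold change of -0.62 (SE 0.21). In bulk tissue, fewer cells of a type and less RNA per cell cannot be told apart. Summed markers of astrocytes (4 of 4 detected) also did not overlap between the cortices, at 600 to 894 CPM in NT and 476 to 583 CPM in R6/2. Those of striatal projection neurons, 327 to 406 and 67.2 to 102 CPM, did not overlap either, whereas markers of neurons (5 of 5), 3822 to 5335 and 3353 to 4129 CPM, and of oligodendrocytes (5 of 5), 3369 to 6953 and 3445 to 5422 CPM, did. Their part in the Rtn4 values was not tested.

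**Figure D2:**
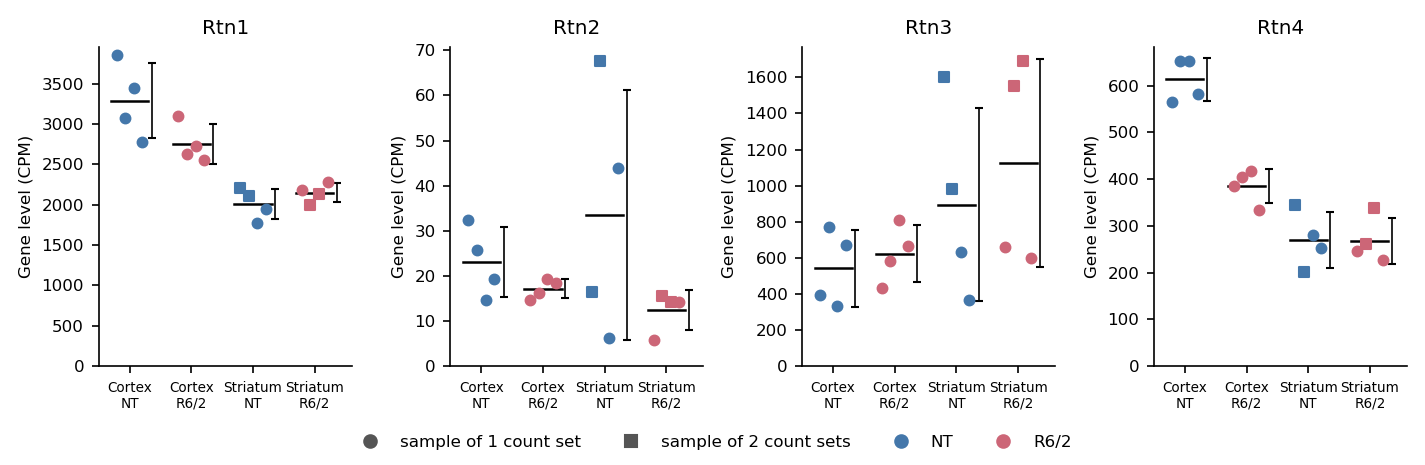
Gene level in CPM (vertical axes, 1 panel for each reticulon) of every sample in the 4 groups, NT in blue and R6/2 in red, circles for samples of 1 count set and squares for samples of 2, with the mean as a line and the SD as a bar (n = 4). Rtn4 is lower in all 4 R6/2 cortices (334 to 418 CPM) than in all 4 NT cortices (565 to 653 CPM), Rtn3 splits the striatal samples by number of sets, and Rtn2 has 1 high sample in NT striatum (67.7 CPM).

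Nogo-C carried the cortical difference in Rtn4. It was counted at 224, 390, 395 and 321 CPM in NT cortex and at 134, 153, 152 and 171 CPM in R6/2 cortex. The groups did not overlap, with means of 333 ± 79.5 and 152 ± 15.1 CPM (SD, n = 4) and a ratio of 0.458. The 3-exon isoforms of 1647 and 1651 nt together, by contrast, stood at 191 ± 42.6 CPM in NT and 188 ± 37.2 CPM in R6/2 cortex, a ratio of 0.988. This sum was formed after its values were seen, as was the choice of Nogo-B and Nogo-A for the text. The make-up of the gene also differed between the cortices. Nogo-C held 84.4 to 88.3% of the complete Rtn4 reads of NT cortex and 68.8 to 82.2% of those of R6/2 cortex, and the 1651-nt isoform 7.29 to 9.18% and 16.7 to 26.6%. Neither share overlapped between genotypes. The 2 shares are parts of 1 total and not independent, and the share of all isoforms that separate in this way is not given here. Of all Rtn4 gene reads, Nogo-C held means of 53.8% in NT and 40.0% in R6/2 cortex, and the groups overlapped. The 1651-nt isoform held means of 5.03 and 11.1% of gene reads, without overlap. When the 1647-nt ISM reads were counted with the others, Nogo-C made up 63.0 ± 10.7% of the 2 kinds together in NT and 45.1 ± 7.37% in R6/2 cortex (SD, n = 4), and the groups overlapped.

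In the striatum the 3-exon isoforms were low and differed with the number of sets. They stood at 17.3 to 55.2 CPM in the 4 samples of 1 set and at 56.7 to 125 CPM in the 4 samples of 2 sets, against 132 to 233 CPM in the cortex. Nogo-C was at 86.3 to 245 CPM in NT striatum and at 118 to 165 CPM in R6/2 striatum, and the groups overlapped. Its share of complete reads did not overlap between genotypes, as in the cortex, at 88.1 to 95.9% in NT and 81 to 87.96% in R6/2 striatum, whereas its share of all gene reads did, with means of 62.8% and 53.1%. Relative to Nogo-C, there were 0.624 ± 0.297 3-exon reads per Nogo-C read in NT cortex, 1.26 ± 0.320 in R6/2 cortex, 0.379 ± 0.403 in NT striatum and 0.487 ± 0.184 in R6/2 striatum (SD, n = 4).

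**Figure D3:**
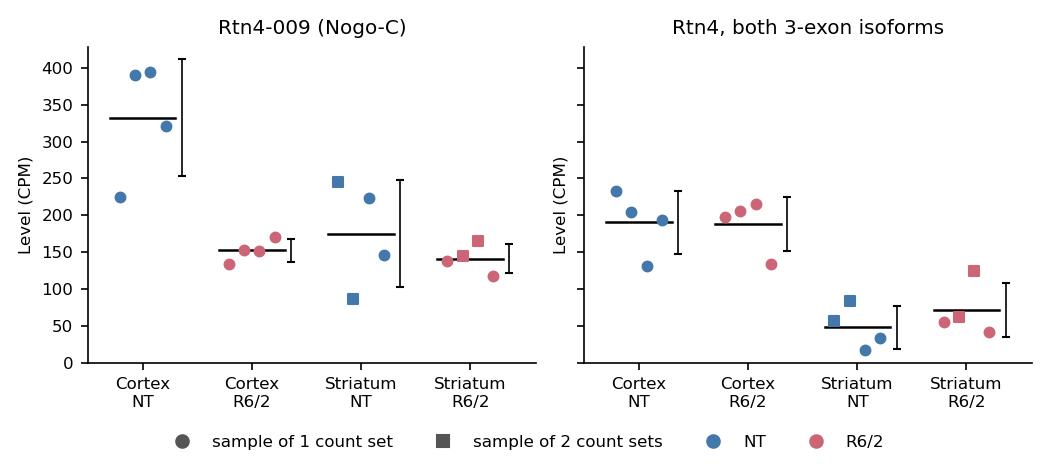
Level in CPM of Nogo-C (Rtn4-009) and of the 2 3-exon isoforms together in every sample, NT in blue and R6/2 in red, circles for 1 count set and squares for 2, with the mean as a line and the SD as a bar (n = 4). Nogo-C is lower in R6/2 cortex (134 to 171 CPM) than in NT cortex (224 to 395 CPM), while the 3-exon isoforms have close means in the cortices (188 and 191 CPM) and are lower in the striatum.

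The length of the 1647-nt ISM isoform can be set against the sequence of Nogo-A. Exons 1 and 2 of Rtn4-005 take 804 nt, so that a read of 1647 nt that starts with the transcript would end 843 nt into the 2361-nt exon 3. The 1651-nt isoform is NNC and has a splice site outside the annotation, so its end cannot be computed from these exons. A run of 9 A lies just downstream of the computed end, at transcript positions 1660 to 1668, counted from 1 at the 5′ end. The run begins 12 bases beyond that end. It is the sole run of at least 7 A in that transcript. The window of 30 bases around it is shown with the run in capitals, because the computed end of the 1647-nt isoform falls just before it. It lies at chr11:29707250-29707279 (mm10, plus strand), in a coding exon.
Rtn4 exon 3: aaaacaaaacagatgAAAAAAAAAtagaag
The match rests on exon number and length, because the isoforms were listed without coordinates. It was not tested whether reads of the 1647-nt isoform end there. A single-exon Rtn4 isoform of 1658 nt in the genomic class, which was left out of gene counts, held a further 346 reads. Genomic-class reads came to 2.24 to 8.13% of the Rtn4 gene reads in NT cortex and to 8.28 to 23.2% in R6/2 cortex, with no overlap. With them added to the gene, the cortical log2 fold change of Rtn4 was -0.51, and with ISM reads left out it was -0.90.

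Reads that span all of Nogo-A were rare. Rtn4-005 had 0 of 1040 complete Rtn4 reads in the cortex, which allows a share of up to 0.288%, and 14 of 1046 in the striatum. These were 1, 1, 0 and 0 reads in NT and 1, 3, 7 and 1 reads in R6/2 striatum. Rtn4-008, the Nogo-A form with another first exon, had 0 reads in the cortex and 2 in the striatum. These are counts of full-length reads of a transcript of 4618 nt and not a measure of the level of Nogo-A in the tissue.

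The long forms of Rtn4, those over 2532 nt and mostly Nogo-B and Nogo-A, took a larger mean share of complete reads in R6/2 striatum than in the other groups. The shares were 2.91, 3.97, 2.70 and 3.03% in NT striatum and 7.41, 9.58, 11 and 5.17% in R6/2 striatum. Every R6/2 striatum lay above every NT striatum, with means of 3.15 ± 0.560% and 8.29 ± 2.55% (SD, n = 4), and the order was the same among samples of 1 set and among samples of 2 sets. The counts were small, at 16 of 513 complete reads in NT and 49 of 533 in R6/2. The 95% Wilson intervals of the pooled shares were 1.93 to 5.01% and 7.02 to 11.9%, and single samples had intervals as wide as 0.537 to 15.3%. Nogo-B itself had 13 reads spread as 5, 4, 3 and 1 over NT striatum and 32 as 6, 11, 14 and 1 over R6/2 striatum. The length limit is on the annotated transcript. Rtn4-007 lies above it with a last exon of 2345 nt, against 930 nt in Rtn4-005, Rtn4-006 and Rtn4-009. Long and short Rtn4 forms are thus not split by coding length alone. Rtn4-006 is a further Nogo-B form of 8 exons and 2257 nt with the same 747-nt first exon. Its coding sequence is longer than that of Rtn4-007 (1125 against 1068 nt), but it fell below the limit and was counted as short. It had 12 reads, of which 7 were cortical and 5 striatal, with 2 in R6/2 striatum 2 and 3 in R6/2 striatum 3. In the cortex the long share was 1.46 to 5.21% in NT and 0 to 4.08% in R6/2. The sample at 0, R6/2 cortex 4, had 90 complete reads, which allows a share of up to 3.33%. The difference of 5.14 percentage points lay between 3.42 and 6.85 in the alternatives computed, which left out a sample, used samples of 1 or of 2 sets only, or counted other read classes. Intervals and limits of this kind cover counting error only, since the libraries were amplified by PCR without molecular identifiers.

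Rtn1, the neuronal reticulon, was higher in cortex than in striatum. The levels were 3851, 3075, 3452 and 2777 CPM in NT cortex and 3102, 2632, 2732 and 2552 CPM in R6/2 cortex. In the striatum they were 2210, 2104, 1774 and 1943 CPM in NT and 2182, 1996, 2137 and 2287 CPM in R6/2. All 8 cortical samples lay above all 8 striatal ones, and the genotypes overlapped in both regions. The means were 3289 ± 466, 2754 ± 243, 2008 ± 191 and 2151 ± 121 CPM in NT cortex, R6/2 cortex, NT striatum and R6/2 striatum (SD, n = 4). Between striatum and cortex, the log2 fold change was -0.74 (SE 0.18) in NT and -0.38 (SE 0.17) in R6/2. Between genotypes it was -0.24 (SE 0.18) in the cortex and 0.09 (SE 0.16) in the striatum.

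The short form of Rtn1 was higher in the cortex, and the long form had its highest levels in the striatum. Rtn1-201 stood at 2335 to 3532 CPM in NT cortex and 2261 to 2816 CPM in R6/2 cortex, against 1238 to 1524 CPM in NT striatum and 1282 to 1846 CPM in R6/2 striatum. Rtn1-001, the long form, stood at 124 to 277 CPM in NT cortex and 137 to 224 CPM in R6/2 cortex, against 190 to 821 CPM in NT striatum and 252 to 754 CPM in R6/2 striatum. The share of all long forms (over 2367 nt) among complete Rtn1 reads was 3.37, 8.24, 4.33 and 10.9% in NT cortex and 4.99, 8.27, 8.61 and 8.01% in R6/2 cortex. In the striatum it was 40.6, 33.3, 23.3 and 11.3% in NT and 15.6, 30.3, 37.7 and 12.4% in R6/2. Each striatal sample lay above each cortical one, the nearest pair being 11.3% (95% Wilson interval 8.38 to 14.98%) and 10.9% (9.34 to 12.6%). The genotypes overlapped in both regions, with differences between R6/2 and NT of 0.767 percentage points in the cortex and -3.14 in the striatum. Neither sign was stable when 1 sample was left out. The cortical difference ran from -0.344 without NT cortex 1 to 2.16 without NT cortex 4, and was also below 0 without NT cortex 3. The striatal one ran from -8.43 without NT striatum 4 to 1.35 without NT striatum 1, and was also above 0 without R6/2 striatum 4.

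Within the striatum the long share of Rtn1 followed the number of count sets. The choice of members did not use this split, so it was tested. Earlier results of these data had already shown that it divides the striatal samples, and the isoform shares had been in view. The p-values are therefore not those of a test set up without sight of the data. The 4 samples of 2 sets had 30.3 to 40.6% long reads and the 4 samples of 1 set 11.3 to 23.3%. The difference was 19.9 percentage points, between means of 35.5 ± 4.56% and 15.6 ± 5.45%, with p = 0.0286 in a two-sided exact permutation test (n = 4 against 4), the smallest p that 70 arrangements allow. Adjusted over the 3 genes with enough complete reads, Rtn1, Rtn3 and Rtn4, it was 0.0857 and missed the threshold of 0.05. The test had been planned with adjustment over all 4 reticulons, and Rtn2 was left out, so all adjusted values of this test rest on 3 genes. With arrangements kept within genotype, p was 0.0556, the smallest that 36 arrangements allow, and 0.111 after adjustment. With the first set of each sample alone, the difference was 17.7 percentage points with an adjusted exact permutation p of 0.0429. Restricted to samples of 1 set, the difference between striatum and cortex in long share was 10.6 percentage points in NT and 6.49 in R6/2, against 30.3 and 26.6 for samples of 2 sets. Mean isoform length over all genes, given above, split the same samples, and its part in these shares was not tested.

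The long share of Rtn1 is also given for each set of a sample, with no test, since reads of amplified cDNA are not independent molecules. In NT striatum 1 it was 36.02% in the first set and 44.4% in the second, in NT striatum 2 28.7 and 38.6%, in R6/2 striatum 2 24.1 and 35.3%, and in R6/2 striatum 3 44.5 and 33.4%. The second set was higher in 3 samples and lower in 1.

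**Figure D4:**
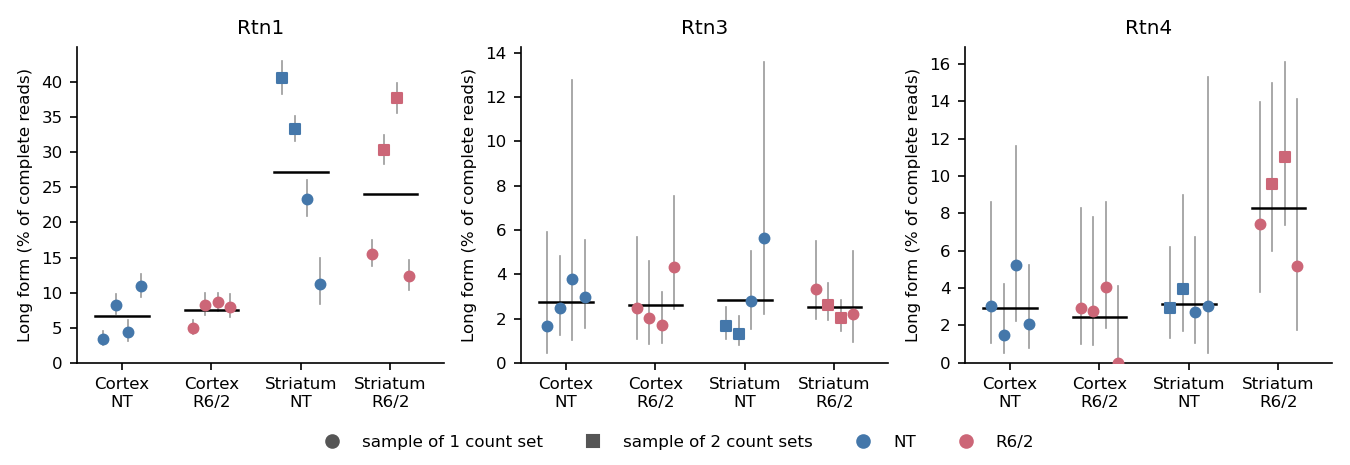
Share of complete reads from long forms, in percent (vertical axes), of Rtn1, Rtn3 and Rtn4 in every sample, NT in blue and R6/2 in red, circles for 1 count set and squares for 2, grey bars for the 95% Wilson intervals and lines for group means. Rtn1 has 3.37 to 10.9% long reads in the cortex and 11.3 to 40.6% in the striatum, highest in samples of 2 sets. Rtn4 has its highest mean share in R6/2 striatum, where samples lie at 5.17 to 11% and overlap NT cortex (up to 5.21%).

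Rtn3, the reticulon that has a form acting in ER-phagy, varied more with the number of count sets than with region or genotype. Its levels were 395, 773, 332 and 669 CPM in NT cortex, 432, 581, 810 and 664 CPM in R6/2 cortex, 1604, 982, 630 and 365 CPM in NT striatum and 659, 1550, 1689 and 596 CPM in R6/2 striatum. The 4 striatal samples of 2 sets, at 982 to 1689 CPM, lay above all the other 12 samples, which ranged from 332 to 810 CPM. Means were 1456 ± 321 CPM with 2 sets and 562 ± 134 CPM with 1 set (SD, n = 4). In edgeR's quasi-likelihood test over 7658 genes the log2 fold change was 1.19 (SE 0.21), with an adjusted p of 0.00081, and 30.4% of the genes tested passed the threshold in that contrast. Rtn3 was the 1 reticulon of 4 to do so, and it did in every alternative computed. The other log2 fold changes were -0.12 (SE 0.16, adjusted p 0.598) for Rtn1, 0.94 (SE 0.59, adjusted p 0.249) for Rtn2 and 0.01 (SE 0.19, adjusted p 0.983) for Rtn4.

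The number of sets is balanced between genotypes in the striatum, and with it as a term the log2 fold change of Rtn3 was 0.31 (SE 0.21) between R6/2 and NT striatum and 0.19 (SE 0.25) in the cortex. Between striatum and cortex it was -0.12 (SE 0.29) in NT and 0.02 (SE 0.28) in R6/2. Without the term the regional values were 0.72 in NT and 0.86 in R6/2. Markers of oligodendrocytes (5 of 5 detected) differed between the same striatal samples, at 17295 to 29562 CPM with 2 sets and 12494 to 15251 CPM with 1 set, and so did those of endothelial cells (2 of 2), at 116 to 124 and 73.0 to 99.0 CPM. Their part in the Rtn3 values was not tested.

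The isoforms of Rtn3 kept close to the same shares in all groups. Rtn3-201 held 84.9 to 92.4% of complete reads in NT cortex, 87.2 to 92.1% in R6/2 cortex, 89.9 to 90.6% in NT striatum and 85.5 to 90.2% in R6/2 striatum. Rtn3-203 held 5.04 to 9.43%, 4.54 to 7.63%, 2.82 to 6.75% and 5.90 to 7.58% in the same order. The share of forms over 3780 nt, those with the long exon, was 1.30 to 5.63% over the 16 samples, with 2 to 37 long reads per sample. It averaged 1.90 ± 0.568% in striatal samples of 2 sets and 3.49 ± 1.499% in those of 1 set (SD, n = 4), with exact permutation p = 0.0571, adjusted 0.0857. With the first set alone the difference was -2.16 percentage points (exact permutation p = 0.0429 when adjusted over the 3 genes without Rtn2). The sign was opposite to that of Rtn1. For Rtn4 the long share was 6.87 ± 4.02% and 4.58 ± 2.18% (SD, n = 4), with exact permutation p = 0.343.

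**Figure D5:**
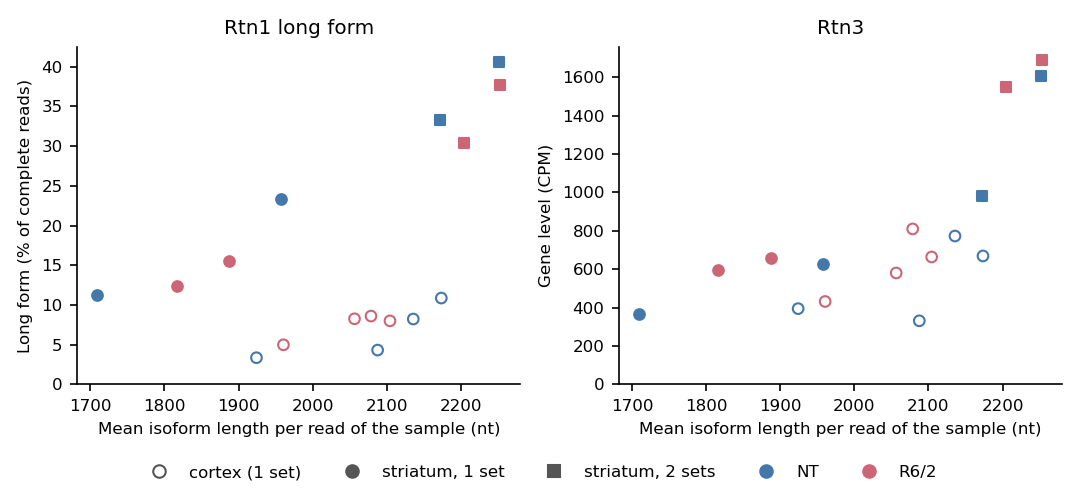
Gene level of Rtn3 and share of long Rtn1 reads against mean isoform length per read over all genes (nt, horizontal axes), 1 point for each sample, open for cortex and filled for striatum, NT in blue and R6/2 in red, circles for 1 count set and squares for 2. The 4 striatal samples of 2 sets have mean lengths of 2172 to 2253 nt and the highest values of both measures, and the 4 striatal samples of 1 set have lengths of 1710 to 1957 nt.

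Rtn2, the reticulon of the spastic paraplegia locus, was scarce. It had 12, 12, 3 and 10 reads in NT cortex, 8, 8, 14 and 8 in R6/2 cortex, 13, 87, 4 and 9 in NT striatum and 4, 15, 14 and 6 in R6/2 striatum. One sample, NT striatum 2, held 87 of the 227 reads of the gene. At 67.7 CPM it was above the other 15 samples, which lay between 5.81 and 43.8 CPM. Of these 87 reads, 73 were the long Rtn2-001, 47 in the first set of that sample and 26 in the second, where no other set of any sample had more than 7. The log2 fold change between R6/2 and NT striatum was -1.41 (SE 0.54) with this sample and -0.43 without it. Group means were 23.1 ± 7.77, 17.2 ± 2.13, 33.5 ± 27.7 and 12.4 ± 4.46 CPM in NT cortex, R6/2 cortex, NT striatum and R6/2 striatum (SD, n = 4), and all groups overlapped. In the cortex Rtn2 was below the filter on low counts, and its log2 fold change without the filter was -0.40 (SE 0.39).

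Single samples held 1 to 80 complete Rtn2 reads, so the forms are given pooled. Long forms (over 1463 nt) made up 15 of 16 complete reads in NT cortex, 15 of 17 in R6/2 cortex, 84 of 92 in NT striatum and 15 of 21 in R6/2 striatum. The 95% Wilson intervals were 71.7 to 98.9%, 65.7 to 96.7%, 83.8 to 95.5% and 50.04 to 86.2%. They overlapped. The pooled share of NT striatum is mostly that of sample 2, with 76 long of 80 complete reads. Samples 1, 3 and 4 of that group had 7 of 9, 1 of 2 and 0 of 1. The short Rtn2-002 had 2 reads in the cortex, both in R6/2, and 14 in the striatum.

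In the tests run over all genes, few genes passed in the genotype contrasts, and no reticulon did. In the cortex 3.22% of the genes tested were called (197 of 6121) and 0 of the 3 reticulons that passed the filter, with 1057 genes at an unadjusted p under 0.05. Rtn4 was called there by DESeq2, with ISM reads left out, with all 16 samples in 1 fit, with a replicate block and without NT cortex 1. In the striatum 4.34% were called (332 of 7658) and 0 of 4 reticulons. Rtn2 was called there without a filter and without NT striatum 1, and leaving out NT striatum 1 also called it between regions in R6/2. Between striatum and cortex, 33.4% of genes were called in NT, with Rtn1 and Rtn4 among them, both lower in striatum. In R6/2 27.3% were called, with Rtn4 among them, also lower in striatum. Rtn1 was no longer called in NT without a filter, without NT cortex 1 or without NT striatum 3. Rtn4 was no longer called in R6/2 without the term for sets, with ISM reads left out, with genomic reads added, with other filters, or without any 1 of 7 samples: NT cortex 1, R6/2 cortex 2 and 3, NT striatum 1, and R6/2 striatum 1, 2 and 4. For the interaction of region and genotype 0.0406% of genes were called (3 of 7390) and 0 of 4 reticulons. For a difference in isoform usage between genotypes 0.360% of genes were called in the cortex (11 of 3058) and 0.428% in the striatum (19 of 4437), with 0 of 3 and 0 of 4 reticulons. Rtn4 was called for isoform usage in the cortex with edgeR's F test in place of the Simes test, with a minimum of 20 reads, without NT cortex 1 and without R6/2 cortex 4. Since these contrasts were in view when the reticulons were chosen, nothing is read from the counts of members.

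The genes that act with the reticulons were taken as 4 lists of 49 genes, of which 48 were found. They are the receptors of Nogo and their other ligands (11 genes), proteins that shape ER tubules (17), ER-phagy receptors and the proteins they bind (12) and the secretases of the amyloid precursor (9). Between genotypes 0 of the 25 genes tested in the cortex and 0 of the 35 tested in the striatum passed edgeR's test, with 2 and 3 at an unadjusted p under 0.05, and 0 in both regions by DESeq2. The interaction of region and genotype gave 0 of 34, with 2 unadjusted. Bace1, the beta-secretase, had log2 fold changes between R6/2 and NT of 0.02 (SE 0.37) in the cortex and 0.06 (SE 0.27) in the striatum. Those of Atl1, the atlastin that fuses ER tubules, were -0.03 (SE 0.17) and 0.19 (SE 0.20), and those of Fam134b (now Retreg1), an ER-phagy receptor with a reticulon-like domain, were -0.24 (SE 0.22) and 0.10 (SE 0.20). Rtn4r, the Nogo receptor, was below the filter in the genotype fits, with 11, 9, 4 and 14 reads in NT cortex, 5, 9, 6 and 4 in R6/2 cortex and 0 to 5 in the striatum. These are 19.4 to 29.8 CPM in NT and 8.31 to 18.3 CPM in R6/2 cortex, from few reads.

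Between striatum and cortex, 13 of 34 list genes passed in NT (38.2%, 7 higher in striatum) and 10 of 34 in R6/2 (29.4%, 6 higher), close to the 33.4 and 27.3% of all genes. With the term for sets, regional values of the list genes are those of striatal samples of 1 set. Without the term for sets the counts were 5 and 6. The SEs of the log2 fold changes named below lay between 0.18 and 0.60. Among receptors and ligands, striatum was higher for the myelin proteins Mag and Omg, which are further ligands of the Nogo receptor, in both genotypes. The log2 fold changes were 0.69 (adjusted p 0.0075) and 1.52 (0.0436) in NT and 1.24 (3.80e-05) and 1.96 (0.00414) in R6/2. The co-receptor Lingo1 was lower in striatum in NT (-1.96, adjusted p 0.0106) and did not pass in R6/2 (-1.02, 0.211). Summed oligodendrocyte markers were at 12494 to 29562 CPM in the striatum and 3369 to 6953 CPM in the cortex, and their part in the values of Mag and Omg was not tested.

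Of the proteins that shape ER tubules, 3 of 12 tested passed in NT and 2 of 12 in R6/2, all lower in striatum. Ckap4, a protein of ER sheets, had log2 fold changes of -2.41 (adjusted p 3.53e-05) and -2.36 (3.26e-05), Atl1 of -0.94 (0.00183) and -0.69 (0.0164), and the small GTPase Rab18 of -0.92 (0.0093) in NT. Of the ER-phagy list 5 of 11 passed in each genotype, 3 higher and 2 lower in striatum. Gabarap, which autophagy receptors bind, was higher (1.12, adjusted p 0.000176, and 0.84, 0.00257), as was the translocon protein and ER-phagy receptor Sec62 (1.26, 0.000225, and 0.64, 0.0401). The ER-phagy receptor Ccpg1 was lower (-1.27, 0.00108, and -0.97, 0.00578), as was Map1lc3b, a protein of the autophagosome membrane (-0.54, 0.0257, and -0.51, 0.0365). Of the secretases, the gamma-secretase subunit Psenen was higher in striatum in NT (1.85, 7.54e-05) and in R6/2 (1.38, 0.000881). All these regional values are for striatal samples of 1 set. With 2 sets Sec62 (-1.65), Psenen (-1.66) and Gabarap (-0.92) were lower than with 1 set. For these genes the set difference was close to or larger in size than the regional one, so a higher level is not shown for samples of 2 sets.

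Between striatal samples of 2 sets and of 1 set, 12 of 35 list genes differed (34.3%, 7 higher and 5 lower with 2 sets) beside 30.4% of all genes. The same samples also differed in mean isoform length and in markers, and the part of these was not tested. Several list genes that differed between regions were among the 12, and SEs lay between 0.14 and 0.42. With 2 sets, Sec62 was lower by a log2 fold change of -1.65 (adjusted p 0.000128), Psenen by -1.66 (0.000624), Gabarap by -0.92 (0.00149) and Gabarapl2, a relative of Gabarap, by -0.68 (0.00341). Fam134a, a reticulon-like ER protein, was higher by 1.07 (0.00286), the tubule GTPase Rab10 by 0.87 (0.00337), Ncstn, a subunit of gamma-secretase, by 0.98 (0.0379), Mag by 0.53 (0.0175) and Lingo1 by 1.34 (0.0291).

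The genes whose levels ran most alike with each reticulon over the 16 samples were found by Pearson's r of log2 CPM among 4756 genes, as a description. The samples share the region, genotype and set splits given above and a common normalization, so no test was made. For Rtn1 they were Cyth2, a guanine nucleotide exchange factor of ARF proteins (r = 0.96), the actin-binding Coro1a (0.94) and the postsynaptic scaffold Homer2 (0.94). For Rtn3 they were the translation elongation factor Eef2 (0.96), Ccdc92 (0.96) and Hacd3, an enzyme of long-chain fatty acid synthesis (0.95). For Rtn4 they were Coro1a again (0.93) and Nos1ap, an adaptor of neuronal nitric oxide synthase (0.92). For the scarce Rtn2 the values were lower, at 0.79 for the proteoglycan Cspg5, 0.78 for Mpnd and 0.77 for Ubac1.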

How the data were processed

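The 16 samples of mouse cortex and striatum were profiled by PacBio Iso-seq, 4 for each region and genotype. Total RNA was treated with Terminator exonuclease, reverse transcribed and amplified by PCR without molecular identifiers. The authors generated consensus reads, trimmed and filtered them to full-length reads, mapped them to mm10 with minimap2 2.17-r941, ran TranscriptClean on the alignments and used TALON to match reads to Ensembl isoforms. The values the authors deposited are counts of reads per isoform, unfiltered and not normalized. Reads that stop early at the 5′ end or start from an internal A-rich stretch stay in such counts, and long transcripts yield fewer complete reads. The 20 count sets were summed to 16 samples.

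Gene counts are sums of known, ISM, NIC and NNC reads, and complete reads are known, NIC and NNC reads. CPM, edgeR 4.0.16 fits (R 4.3.3, TMM, filterByExpr, glmQLFit and glmQLFTest, Benjamini-Hochberg, threshold 0.05) and isoform usage (diffSpliceDGE, Simes, at least 10 reads per isoform) were computed here over all genes. The cortex was fitted by genotype, and the striatum by genotype and number of count sets. Regional contrasts and the interaction came from 1 fit of all 16 samples with the number of sets, which holds them to samples of 1 set. Long forms lie above the widest gap in log length between known isoforms that hold at least 1% of a gene's complete reads: between 1544 and 3629 nt in Rtn1, 1076 and 1990 nt in Rtn2, 2841 and 5030 nt in Rtn3 and 1773 and 3615 nt in Rtn4. Exons, coding sequences and coordinates come from GENCODE M21. For Rtn3 its models differ from the isoforms counted, so Rtn3 isoforms are described by the exon number and length given with the counts. For shares of single genes the exact permutation test was two-sided. Scripts were tested on simulated data.

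Isoforms named are those with at least 5% of a gene's complete reads. Rtn3-202, Rtn4-005, Rtn4-006, Rtn4-007, Rtn4-008 and the single-exon, 1647-nt and 3479-nt isoforms were added after their values were seen. Partner genes named are the up to 4 of smallest adjusted p in each list and contrast, and Rtn4r, Bace1, Atl1 and Fam134b in any case. Genes like a reticulon were the 3 of highest r among genes with a mean of at least 20 reads. Some genes that these rules name are not reported here. The members, lists and tests were chosen with earlier results of these data known. Markers of microglia were at 271 to 446 CPM in the cortex and 355 to 626 CPM in the striatum, of cortical excitatory neurons at 87.9 to 136 and 0 to 36.6 CPM, of astrocytes at 239 to 683 CPM in the striatum, of neurons at 2070 to 4580 CPM in the striatum, of endothelial cells at 106 to 230 CPM in the cortex, and of choroid plexus (Ttr) at 4.31 to 1535 and 34.0 to 9164 CPM. The study takes these samples from a larger set of biological replicates of each genotype. The labels only number them and do not say which cortex and striatum share a mouse, so regional tests do not use such pairs. Alternatives were DESeq2 1.42.0, upper-quartile scaling, other filters, other read classes, the first set only, no term for sets, a replicate block and leaving out each sample.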

Additional observations from a re-analysis of the deposited data

Results flagged for a closer look

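In 60 groups of 4 values, 4 held a sample far from the other 3 of its group, and about 1 in 20 groups does so by chance. Rtn2 stood at 5.81 CPM, from 4 reads, in R6/2 striatum 1, and at 14.1 to 15.5 CPM in the other 3 samples of that group. Long reads were 4.99% of complete Rtn1 reads in R6/2 cortex 1, and 8.01 to 8.61% in the other 3. Rtn3-203 held 5.90% of complete Rtn3 reads in R6/2 striatum 2, and 7.36 to 7.58% in the other 3. The 1651-nt isoform of Rtn4 held 0% of the 58 complete reads of R6/2 striatum 4, which allows a share of up to 5.17%, and 4.19 to 5% in the other 3.

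Reads of the genomic class were left out of gene counts and of complete reads, except in the alternative that adds them. They numbered 358 in Rtn1, 751 in Rtn3 and 421 in Rtn4, and 0 in Rtn2. In Rtn3 a single-exon isoform of 1128 nt held 621 of them, and in Rtn4 one of 1658 nt held 346. The latter stood at 53.8 to 127 CPM in the 4 striatal samples of 1 set and at 0.778 to 16.6 CPM in the 4 samples of 2 sets. In the cortex it came to 4.57 ± 1.60% of Rtn4 gene reads in NT and 14.7 ± 5.76% in R6/2 (SD, n = 4), with no overlap between the genotypes. The source of these reads was not tested.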

How the results depend on the processing

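The numbers of calls moved most. In the cortex, leaving out ISM reads gave 95 genes between genotypes, and adding the genomic class called 1 partner gene, Lingo1. In the striatum the 332 calls became 606 without a filter, 183 with the first set only and 39 without the term for sets, which also lowered regional calls to 1099 in NT and 839 in R6/2, partner genes to 5 and 6, and the interaction to 1. DESeq2 gave 7 and no filter 8 interaction genes. For isoform usage, the F test gave 28 cortical and 72 striatal genes, and in the striatum known isoforms alone gave 9, ISM reads added 11, no term for sets 3 and the first set 8.

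The log2 fold change of Rtn4 in the cortex was -0.90 without ISM reads and -0.51 with genomic reads. Between regions, Rtn3 stood at 0.72 (NT) and 0.86 (R6/2) without the term for sets, and Rtn2 at -0.45 in R6/2. Rtn4 was at -0.89 in NT with genomic reads, and in R6/2 at -0.34 without ISM and -0.30 with genomic reads, while DESeq2 put Rtn1 in R6/2 at -0.27. The long share of Rtn1 differed between regions by 10.6 and 30.3 percentage points in NT (samples of 1 and 2 sets) and by 6.49 and 26.6 in R6/2. That of Rtn4 differed by 1.46 (NT) and 8.19 (R6/2) with ISM reads. With the first set only, 2 sets against 1 gave 17.7 for Rtn1 and -2.16 for Rtn3, past the threshold. Upper-quartile scaling turned the sign of the Rtn1 level in that contrast, to 0.000300, and moved the median of all genes there by 0.107. The cause of these changes was not tested. DESeq2 moved the median by 0.10 and 0.11 in the regional contrasts, and no filter by 0.23 and 0.18.

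With a replicate block, 185 genes were called between genotypes in the striatum, 1 for the interaction and 7 for isoform usage in the cortex. Deviations of same-numbered samples correlated by -0.09 to 0.27 between regions and by -0.38 to 0.17 between genotypes, and not every pair exceeded 0.1. The sources used here do not say whether same-numbered samples of the 2 regions come from the same mouse, so the block is given as an alternative and pairing between regions cannot be told from these data.

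Without 1 sample at a time, calls ranged from 94 to 305 (cortex), 141 to 391 (striatum), 1931 to 2501 (regions, NT), 1502 to 2248 (regions, R6/2), 1 to 3 (interaction), and 3 to 17 and 5 to 24 (isoform usage, cortex and striatum). Between regions in NT, log2 fold changes ranged from -0.82 to -0.43 for Rtn1, and in R6/2 from -0.45 to -0.17 for Rtn1, -1.57 to -0.63 for Rtn2 and -0.71 to -0.39 for Rtn4. The Rtn4 level in samples of 2 sets against 1 ranged from -0.13 to 0.18. Of the other values, 260 of 279 log2 fold changes and 149 of 155 differences in long share moved by less than the spread between replicates. A split by exon number was not possible for Rtn4, whose main long and short forms have 7 exons each. Read depth limits Rtn2 and the long forms of Rtn4 most.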
